A study of Mus musculus with 23 samples.

Results

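The numbered centrosomal protein genes are the Cep genes whose symbol carries a number, such as Cep55 or Cep192. They were taken by symbol and not by their values, and 34 of the 22784 gene symbols in the table matched. The family itself was chosen with earlier results of these data known. Of these, 33 were protein-coding genes and 1, Cep83os, was a noncoding RNA that starts beside Cep83. All 34 had at least 1 FPKM (fragments normalized to transcript length and library size) in at least 1 of 8 groups of cells, as did 14242 genes in all. The 34 genes lie on 15 chromosomes, with at most 5 on any of them (chromosomes 9 and 10).

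The centrosome of a dividing cell is a pair of centrioles, small barrels of microtubules, surrounded by pericentriolar material that nucleates microtubules through gamma-tubulin. Cep proteins build the centriole, form the appendages that dock it to the membrane when it becomes the base of a cilium, link the centriole pair, or sit in the satellites around it. Mouse oocytes lose their centrioles in early oogenesis and assemble the meiotic spindle from many acentriolar microtubule-organizing centres that contain pericentriolar proteins. They keep growing in the follicle, store mRNA, and later mature to metaphase II (MII) with little new transcription, when stored mRNAs are degraded or polyadenylated. The contrast of oocytes with stem and germ cells therefore sets cells without centrioles against cells that have them.

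Poly(A)+ RNA was sequenced with strand-preserving libraries from 23 samples in 8 groups, of which 4 were oocytes and 4 were stem cells or germ cells. The oocyte groups were secondary follicle oocytes made in culture (day 21), secondary follicle oocytes from 8-day-old mice, MII oocytes made in culture, and MII oocytes from 8-week-old females. Cultured MII oocytes came from follicles grown for 11 days and then matured for 16 hours. The other groups were female embryonic stem (ES) cells kept in 2i and LIF, day 6 primordial germ cell-like cells (PGCLCs) induced from epiblast-like cells, PGCLCs reaggregated for 3 days with somatic cells of female E12.5 gonads, and E12.5 primordial germ cells (PGCs). All cultured cells were C57BL/6 X 129 and all cells from animals were B6D2F1, so strain and route cannot be told apart. PGCs and secondary follicle oocytes from animals were sorted by the BVSC reporter transgenes. An ES cell, PGCLC or oocyte sample was a pool of cells, 5300 to 15000 for ES cells and PGCLCs, 337 to 812 for secondary follicle oocytes and 99 to 134 for MII oocytes.

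The table gives 1 FPKM value per gene and group, although 7 groups had 3 samples and 1 had 2. The differences below therefore have no replicate check, standard error or p-value, and read depth is unknown. Differences are of log2(FPKM + 1), and a gene is counted as higher or lower when the difference is at least 1, that is 2-fold. Such a scale understates the change of genes near or below 1 FPKM. In pooled cells, fewer cells that express a gene and less RNA per cell cannot be told apart. Genes that mark oocytes (Zp1, Zp2, Zp3, Gdf9, Bmp15 and Figla) summed to 9474 to 14698 FPKM in the oocyte groups and 3.41 to 8.40 FPKM in the other groups. Genes of pluripotent cells (Nanog, Sox2, Esrrb and Zfp42) summed to 713 FPKM in ES cells and 24.5 to 460 FPKM elsewhere, and genes of germ cells (Dppa3, Ddx4, Dazl and Nanos3) to 306 to 1335 FPKM outside ES cells and 27.8 FPKM in ES cells. Genes of ciliated cells (Foxj1, Ccdc39, Dnah5 and Tekt1) summed to at most 6.74 FPKM in any group.

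The level of the Cep genes stayed within a narrow band up to secondary follicle oocytes and was more spread in MII oocytes. In FPKM, their median in ES cells was 7.04, that in day 6 PGCLCs 7.99, that in reaggregated PGCLCs 8.48 and that in E12.5 PGCs 9.03. It was 6.21 FPKM in cultured and 7.71 FPKM in animal secondary follicle oocytes, and 9.53 FPKM in cultured and 17.0 FPKM in animal MII oocytes. The median of all 14242 genes lay between 6.01 and 6.50 FPKM in the first 6 of these groups, and was 3.77 FPKM in cultured and 2.64 FPKM in animal MII oocytes. The Cep genes thus lay at or above the median gene in every group, and farthest above it in MII oocytes.

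The spread within the family grew at the same stage. The interquartile width of the Cep genes was 4.56 log2 units in cultured and 5.27 in animal MII oocytes, against 1.36 to 2.23 in the 6 earlier groups. In all genes it was 3.77 and 4.26 log2 units in those MII oocytes, against 3.09 to 3.45 earlier. No Cep gene reached 50 FPKM in the 6 earlier groups, although Cep41 came to 49.97 FPKM in cultured secondary follicle oocytes, and 10 in cultured and 12 in animal MII oocytes did. Among all genes the share at 50 FPKM or more was 15.3% and 17.7% in those MII oocytes, against 7.68% to 10.5% earlier. At the low end, 5 Cep genes were under 1 FPKM in cultured and 7 in animal MII oocytes, against 0 to 4 in the earlier groups, and 30.4% and 37.5% of all genes were, against 22.4% to 25.3% earlier. The share of low genes was thus larger in MII oocytes among all genes too. Summed, the Cep genes made up 0.186% of all FPKM in cultured and 0.201% in animal MII oocytes, against 0.0917% to 0.122% earlier.

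Of the 34 genes, 17 had their highest value in an MII group, 1 in secondary follicle oocytes and 16 in stem or germ cells. Among all 14242 genes the shares were 32.1%, 21.2% and 46.7%. The lowest value fell in an MII group for 10 Cep genes, in secondary follicle oocytes for 11 and in stem or germ cells for 13, beside 41.6%, 19.2% and 39.2% of all genes. Secondary follicle oocytes were thus the stage where a Cep gene was seldom at its peak and often at its lowest.

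**Figure D1:**
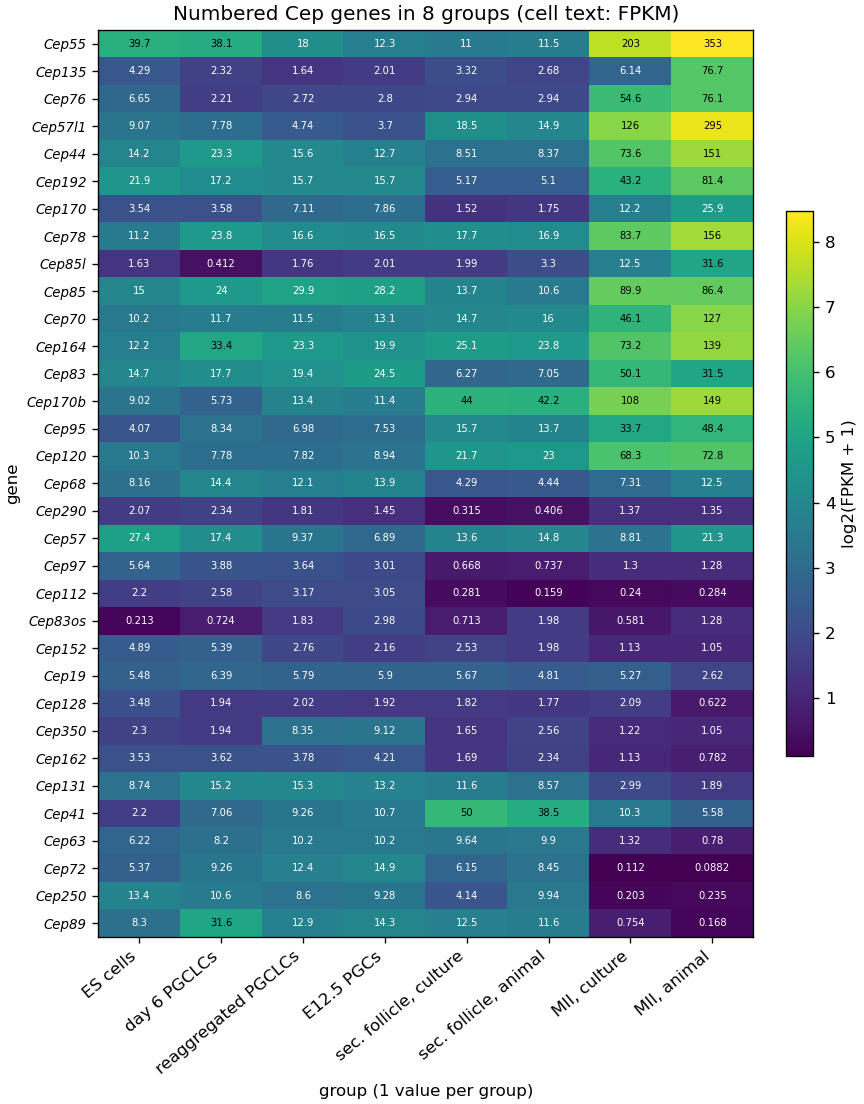
FPKM of 33 numbered Cep genes (rows, ordered by the difference of MII and secondary follicle oocytes of the animal) in the 8 groups (columns), with colour on a log2(FPKM + 1) scale and the FPKM value printed in each cell. The MII columns hold both the highest values, such as Cep55 at 353 FPKM, and the lowest, such as Cep72 at 0.0882 FPKM.

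Oocytes as a whole were not set apart from stem and germ cells in 1 direction. The mean of the 4 oocyte groups was at least 2-fold above that of the 4 stem and germ cell groups for 12 Cep genes and at least 2-fold below it for 8, with 14 in between. These are 35.3% and 23.5% of the family, beside 26.8% higher and 31.5% lower among all genes. The median difference was 0.06 for the Cep genes and -0.22 for all genes. Of the 11 centriole assembly genes 4 were higher and 2 lower (median 0.48), and of the 8 linker, subdistal appendage and satellite genes 1 was higher and 4 lower (median -0.94).

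Cep57l1, the paralogue of the Cep152-binding protein Cep57, had the largest excess in oocytes. It had 18.5 FPKM in cultured and 14.9 FPKM in animal secondary follicle oocytes, 126 FPKM in cultured and 295 FPKM in animal MII oocytes, against 9.07, 7.78, 4.74 and 3.70 FPKM in ES cells, day 6 PGCLCs, reaggregated PGCLCs and E12.5 PGCs. All 4 oocyte values were above all 4 others, and the mean difference was 3.06. Cep57 itself had 8.81 to 21.3 FPKM in oocyte groups and 6.89 to 27.4 FPKM in stem and germ cells, which overlapped, so the paralogues differed in pattern.

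Cep170b, the paralogue of the subdistal appendage protein Cep170, had 44.0 and 42.2 FPKM in cultured and animal secondary follicle oocytes, and 108 and 149 FPKM in cultured and animal MII oocytes. ES cells had 9.02 FPKM, day 6 PGCLCs 5.73, reaggregated PGCLCs 13.4 and E12.5 PGCs 11.4, a mean difference of 2.84 without overlap. Cep120, which is needed for centriole elongation, had 21.7 to 72.8 FPKM in oocyte groups against 7.78 to 10.3 FPKM in stem and germ cells (difference 2.08). The only other genes whose 4 oocyte values all lay above the 4 others were Cep95 (13.7 to 48.4 FPKM against 4.07 to 8.34, difference 1.76) and Cep70 (14.7 to 127 FPKM against 10.2 to 13.1, difference 1.50). Cep70 encodes a gamma-tubulin-binding protein. These 5 genes are the members without overlap on the high side, where 21.4% of all genes also had all 4 oocyte values on top.

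The remaining 7 higher genes overlapped, since their excess came mainly from MII oocytes or, for Cep41, from secondary follicle oocytes. Cep76, which limits centriole reduplication, had 2.94 to 76.1 FPKM in oocyte groups and 2.21 to 6.65 FPKM in stem and germ cells (difference 1.89). Cep85l, a gene linked to lissencephaly in humans, had 1.99 to 31.6 FPKM in oocyte groups and 0.412 to 2.01 FPKM elsewhere (1.88). The differences were 1.50 for Cep135, 1.40 for Cep41, 1.39 for Cep78, 1.22 for Cep164 and 1.19 for Cep55.

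Of the genes on the low side, Cep250, Cep89, Cep72, Cep131 and Cep63 were lower in MII than in secondary follicle oocytes by both routes. Cep112 and Cep97 were lower already in secondary follicle oocytes. Cep350 had 1.65 and 2.56 FPKM in cultured and animal secondary follicle oocytes, below reaggregated PGCLCs (8.35 FPKM) and E12.5 PGCs (9.12 FPKM). Those oocyte values overlapped those of ES cells (2.30 FPKM) and day 6 PGCLCs (1.94 FPKM). Cep250, or C-Nap1, which anchors the fibres linking the centriole pair, had 4.14 and 9.94 FPKM in cultured and animal secondary follicle oocytes and 0.203 and 0.235 FPKM in MII oocytes of those routes, against 8.60 to 13.4 FPKM in stem and germ cells. Its mean difference was -1.91, but the animal secondary follicle value lay within the stem and germ cell range. Cep89, a distal appendage protein, differed by -1.89 and the satellite protein Cep72 by -1.85, also with overlapping groups.

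Without overlap on the low side were Cep112, Cep162, Cep290 and Cep97, 4 genes, where 26.9% of all genes had every oocyte value below. Cep112 had 0.159 to 0.284 FPKM in oocyte groups against 2.196 to 3.171 FPKM in stem and germ cells (difference -1.59). Cep97, which with Ccp110 caps the growing centriole, had 0.668 to 1.30 FPKM in oocyte groups against 3.01 to 5.64 FPKM (-1.33). Cep290, a protein of the ciliary transition zone, had 0.315 to 1.37 FPKM in oocyte groups against 1.45 to 2.34 FPKM, and Cep162, an axoneme-binding protein, had 0.782 to 2.34 FPKM against 3.53 to 4.21 FPKM. Both of these stayed within 2-fold in the mean. The other genes at least 2-fold lower were Cep131 (-1.18), Cep350 (-1.11) and Cep63 (-1.03).

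The balance of this contrast depended on scale. With all groups scaled to equal sums of FPKM, 6 Cep genes lay above and 12 below 2-fold in oocytes, beside 19.1% and 42.8% of all genes, and the median of all genes moved to -0.72. With the median of each group set equal, 13 lay above and 5 below, beside 30.8% and 26.9%. Without the animal MII oocytes, 7 rather than 12 were higher, beside 24.8%.

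In the step from germ cells to secondary follicle oocytes, called the early step below, few Cep genes were higher, and the share that was lower was near that of all genes. In culture 5 were at least 2-fold higher in secondary follicle oocytes than in reaggregated PGCLCs and 9 lower, beside 25.2% and 26.4% of all genes. In the animal 4 were higher in secondary follicle oocytes than in E12.5 PGCs and 8 lower, beside 24.3% and 25.9% of all genes. Of the family that is 14.7% higher with 26.5% lower in culture, and 11.8% with 23.5% in the animal. With equal sums 15 lay below and 4 above 2-fold in culture, beside 35.0% and 22.0% of all genes, and 10 below and 3 above in the animal, beside 33.5% and 21.6%.

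The 4 genes higher in the early step by both routes were Cep41, Cep57l1, Cep170b and Cep120. Cep41, which is needed for glutamylation of ciliary tubulin, had 49.97 FPKM in cultured secondary follicle oocytes against 9.26 FPKM in reaggregated PGCLCs, and 38.5 FPKM in animal secondary follicle oocytes against 10.7 FPKM in E12.5 PGCs. It was the single Cep gene whose highest value was in secondary follicle oocytes, and it differed by 2.31 in culture and by 1.76 in the animal. Differences were 1.76 by both routes for Cep57l1, 1.64 and 1.80 for Cep170b, and 1.36 and 1.28 for Cep120, each with culture before the animal. Cep95 passed 2-fold in culture alone (1.06).

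The 8 genes lower in the early step by both routes were Cep350, Cep112, Cep170, Cep83, Cep97, Cep192, Cep68 and Cep85. Cep192, a scaffold that recruits pericentriolar material and Plk4, had 5.17 FPKM in cultured secondary follicle oocytes against 15.7 FPKM in reaggregated PGCLCs, and 5.10 FPKM in animal secondary follicle oocytes against 15.7 FPKM in E12.5 PGCs. The reduction was alike by both routes, with differences of -1.43 and -1.45. Cep350, which anchors microtubules, was lower by -1.82 in culture and -1.51 in the animal, and Cep170 by -1.68 and -1.69. Differences of the distal appendage protein Cep83 were -1.49 and -1.66, those of Cep97 -1.47 and -1.21, those of the linker protein Cep68 -1.31 and -1.46, and those of the Stil-binding protein Cep85 -1.08 and -1.33. Cep290 passed 2-fold in culture alone (-1.10 against -0.80).

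The step from secondary follicle to MII oocytes, called the late step below, covers further follicle growth as well as maturation. In culture it holds 11 days of follicle culture before the 16 hours of maturation, and in the animal the interval between 8-day-old pups and 8-week-old females. The values do not separate growth from maturation within it. More Cep genes were higher than lower in this step. In culture 16 Cep genes (47.1%) were at least 2-fold higher in MII than in secondary follicle oocytes and 6 (17.6%) lower, beside 23.9% and 28.6% of all genes. In the animal 18 (52.9%) were higher and 6 (17.6%) lower, beside 28.0% and 33.1% of all genes. The median difference was 0.79 in culture and 1.16 in the animal for the Cep genes, and -0.08 and -0.09 for all genes. Nearly all called genes were the same by both routes, with 16 of the higher genes and all 6 lower genes shared.

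Cep55, which brings the abscission machinery to the midbody at the end of cytokinesis, had the highest level and, on this scale, the largest difference. It had 203 FPKM in cultured MII oocytes against 11.0 FPKM in cultured secondary follicle oocytes, and 353 FPKM in animal MII oocytes against 11.5 FPKM in animal secondary follicle oocytes. These are differences of 4.09 and 4.82. At 39.7 FPKM in ES cells, 38.1 FPKM in day 6 PGCLCs, 18.0 FPKM in reaggregated PGCLCs and 12.3 FPKM in E12.5 PGCs, it passed 2-fold before MII in 1 step alone, being lower in reaggregated than in day 6 PGCLCs (-1.04).

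Centriole assembly genes made up the largest role group, with 11 members. In the animal 7 of these were higher in MII than in secondary follicle oocytes and 1 lower, beside 28.0% and 33.1% of all genes. Their median difference was 2.91. In culture 6 were higher and 1 lower, with a median of 1.61, beside 23.9% and 28.6% of all genes. Cep76 had 54.6 FPKM in cultured MII against 2.94 FPKM in cultured secondary follicle oocytes, and 76.1 FPKM in animal MII against 2.94 FPKM in animal secondary follicle oocytes (differences 3.82 and 4.29). Cep44, needed for the conversion of centrioles to centrosomes, had 73.6 FPKM in cultured MII against 8.51 FPKM in cultured secondary follicle oocytes, and 151 FPKM in animal MII against 8.37 FPKM in animal secondary follicle oocytes (2.97 and 4.02). Cep192 had 43.2 FPKM in cultured MII and 81.4 FPKM in animal MII oocytes, above its stem and germ cell range of 15.7 to 21.9 FPKM (differences from secondary follicle oocytes 2.84 and 3.75). In Cep57l1 the differences were 2.70 and 4.22, in Cep85 2.63 and 2.91, and in Cep120 1.61 and 1.62.

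Within this role group the genes did not move together. Cep63, which binds Cep152 and thereby helps place Plk4, had 1.32 FPKM in cultured MII against 9.64 FPKM in cultured secondary follicle oocytes, and 0.780 FPKM in animal MII against 9.90 FPKM in animal secondary follicle oocytes (differences -2.20 and -2.61). Cep152, the partner that recruits Plk4 to the centriole, had 1.13 FPKM in cultured and 1.05 FPKM in animal MII oocytes, against 2.53 and 1.98 FPKM in secondary follicle oocytes of those routes, within 2-fold on this scale. Cep97 was also within 2-fold. The partners Cep63 and Cep152 were thus low where Cep192 was high.

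The same split ran through the distal appendage genes, which dock the mother centriole to the membrane. Cep164 had 73.2 FPKM in cultured MII against 25.1 FPKM in cultured secondary follicle oocytes, and 139 FPKM in animal MII against 23.8 FPKM in animal secondary follicle oocytes (1.51 and 2.49). Cep83 was higher by 2.81 in culture and 2.01 in the animal. Cep89 was the most reduced Cep gene on this scale, with 0.754 FPKM in cultured MII against 12.45 FPKM in cultured secondary follicle oocytes, and 0.168 FPKM in animal MII against 11.6 FPKM in animal secondary follicle oocytes (-2.94 and -3.43). With a pseudocount of 0.1 Cep72 ranked below it (-4.88 in culture and -5.51 in the animal), and with 5 Cep41 did (-1.85 and -2.04). Genes whose products share 1 structure in somatic cells therefore sat at opposite ends of the MII range.

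The linker, subdistal appendage and satellite group, with 8 members, had genes called in both directions. In the animal 3 were higher and 3 lower, with a median of -0.78, beside 28.0% and 33.1% of all genes. In culture 2 were higher and 3 lower, with a median of -0.06, beside 23.9% and 28.6% of all genes. Higher were Cep170 (2.38 in culture and 3.29 in the animal), Cep170b (1.28 and 1.79) and, in the animal alone, Cep68 (0.65 and 1.31). Lower were Cep72 (-2.68 and -3.12), Cep250 (-2.10 and -3.15) and Cep131 (-1.66 and -1.73). Cep72 had the lowest FPKM of any Cep gene in both MII groups, 0.112 FPKM in culture and 0.0882 FPKM in the animal, against 6.15 and 8.45 FPKM in secondary follicle oocytes of those routes.

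Among cilium genes, Cep78 was higher in MII than in secondary follicle oocytes, by 2.18 in culture and 3.13 in the animal, whereas Cep41 was lower (-2.18 and -2.58). The genes outside these roles gave Cep85l at 2.18 and 2.92, Cep70 at 1.59 and 2.91 and Cep95 at 1.06 and 1.75. Cep83os, the noncoding RNA, stayed between 0.213 and 2.98 FPKM in all groups and passed 2-fold in none of these steps. Its start lies 177 bases from that of Cep83 on the opposite strand, and the sources used here do not say whether counting used strand, so reads from the pair may not be separated.

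The early and late steps share the secondary follicle values, so their differences are given beside each other for a gene and not counted jointly. Cep83, for example, differed by -1.49 and then 2.81 in culture and by -1.66 and then 2.01 in the animal, and Cep41 by 2.31 and then -2.18 in culture and by 1.76 and then -2.58 in the animal.

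**Figure D2:**
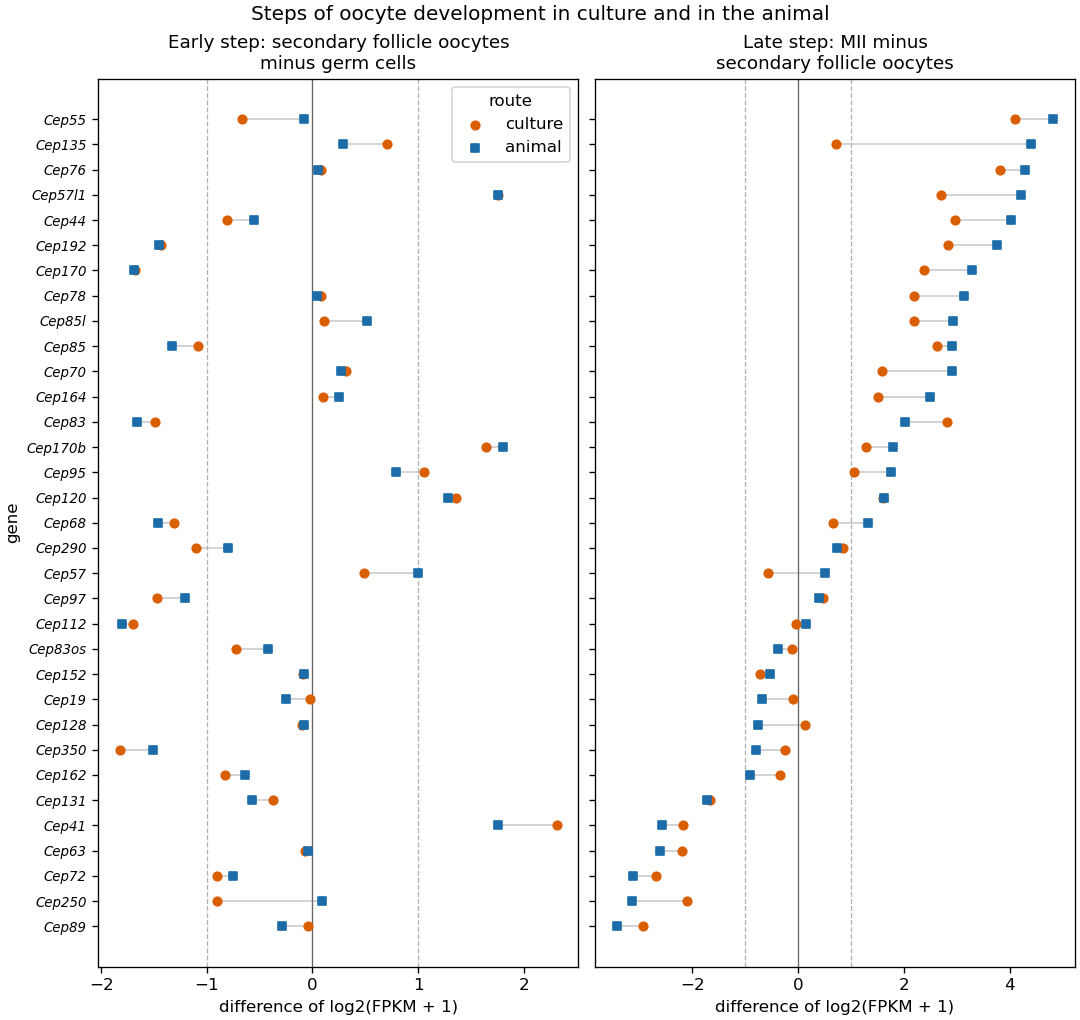
Difference in log2(FPKM + 1) of 33 Cep genes (rows) in the early step (left, secondary follicle oocytes minus germ cells) and the late step (right, MII minus secondary follicle oocytes), with circles for culture, squares for the animal and dashed lines at 2-fold. The routes lie close together for most genes, and in the late step Cep135 has the widest gap, with 0.72 in culture and 4.40 in the animal.

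Several measures moved together with the late step. The sum of FPKM over all genes was 616260 in cultured and 975407 in animal MII oocytes, against 349451 and 349772 in secondary follicle oocytes of those routes. MII samples also held fewer cells, 99 to 134 against 337 to 812. Granulosa cell genes (Amh, Foxl2, Inha, Fshr, Cyp19a1 and Amhr2) summed to 47.4 FPKM in cultured and 45.1 FPKM in animal MII oocytes, against 6.78 and 7.16 FPKM in secondary follicle oocytes of those routes. Most of this was Cyp19a1, at 27.1 FPKM in cultured and 42.2 FPKM in animal MII oocytes, while Fshr was listed at 0 in both MII groups. Inha had 19.3 FPKM in cultured MII against 2.78 FPKM in cultured secondary follicle oocytes. In the animal Inha had 2.55 FPKM in MII against 2.98 FPKM in secondary follicle oocytes. The part of these in the result was not tested. With equal sums, 10 Cep genes lay above and 8 below 2-fold in cultured MII oocytes, beside 15.0% and 39.5% of all genes, and 12 above and 12 below in animal MII oocytes, beside 15.2% and 45.6%. On that scale the median of all genes was -0.50 for culture and -0.74 for the animal, with the Cep median 0.67 and 0.79 above it. Without that scaling it lay 0.87 and 1.25 above the median of all genes. Of the genes higher in the late step, 10 in culture and 12 in the animal kept their call under all 7 alternatives, as did 5 of the 6 lower genes by each route.

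**Figure D3:**
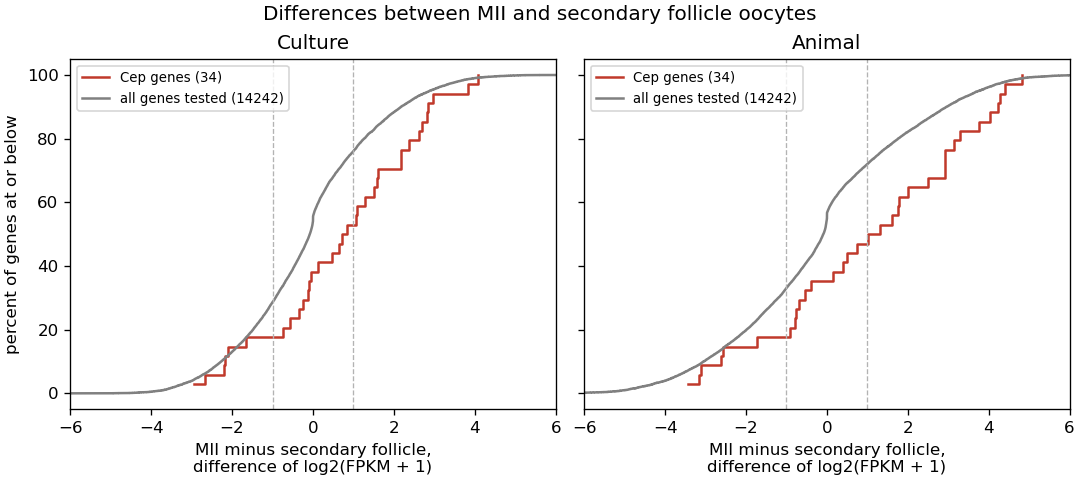
Percent of genes at or below each difference in log2(FPKM + 1) between MII and secondary follicle oocytes, in culture (left) and in the animal (right), for the 34 Cep genes and all 14242 genes, with 2 genes in culture and 44 in the animal beyond the axis. The Cep curve reaches its middle at 0.79 in culture and 1.16 in the animal, to the right of all genes at -0.08 and -0.09.

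Because stored mRNAs are extended at maturation through the cytoplasmic polyadenylation element, the letters TTTTAT and TTTTAAT were sought on the sense strand in the last 150 bases of 1 coding transcript per gene (GENCODE M21, GRCm38). The search was chosen after the values were seen. It covered 30 of the 33 protein-coding Cep genes, and the others, all higher in the late step by both routes, were left out. Of the 30 searched, 13 (43.3%) held a match, beside 23.8% of 12694 genes searched. The shares that follow are of searched genes only. Among Cep genes higher in the late step of the animal 9 of 15 (60.0%) held one, beside 41.0% of all genes higher there. Among the lower Cep genes 0 of 6 did, beside 532 of all 4263 lower genes, and among those within 2-fold 4 of 9 (44.4%), beside 21.1%. In culture the shares were 8 of 13 (61.5%, beside 40.9%) for higher genes, 0 of 6 (beside 12.8%) for lower genes and 5 of 11 (45.5%, beside 21.8%) within 2-fold. These shares rest on few Cep genes, and their difference from those of all genes was not tested. Libraries were made from poly(A)+ RNA and tail length was not measured. The following 30-base stretches, shown because these genes had the largest excess in animal MII oocytes among those with a match, carry the matched letters in capitals (5′ to 3′).
Cep55: aaccaaaatgtgTTTTATtccttcagattt
Cep57l1: tgtggtatcatcTTTTATactttaaaatta
Cep135: agtaaattcatgTTTTATagcaaaatatga
Cep44: attcttaaataaatacTTTTAATattttaa
Cep78: tttgccttcaaaTTTTAATaaattttctta
Cep70: tatgtaatgtacTTTTATaaagaaataaga
Cep170: atgttatttttaTTTTATatgaatacattc
Cep55, Cep57l1, Cep135, Cep70 and Cep170 carry TTTTAT, whereas Cep44 and Cep78 carry TTTTAAT. The match shown, the last in each transcript, starts 89 bases from the transcript end in Cep55, 91 in Cep57l1, 43 in Cep135, 14 in Cep44, 25 in Cep78, 51 in Cep70 and 104 in Cep170. Its place relative to the polyadenylation signal AATAAA was not considered, and in Cep44 the match shown follows those letters.

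Promoters were examined in the window 250 bases before to 50 bases after the start of each gene (RefSeq, GRCm38.p6), which was given for 29 of the 34 genes. On both strands 13 (44.8%) held the CCAAT box, beside 39.1% of the promoters of 10685 tested genes. The letters TTTGAA, the cell cycle homology region of genes that peak late in the cell cycle, were found in 7 (24.1%), beside 11.9%. The letters GTTGCC, part of the X-box bound by RFX factors of ciliary genes, were found in 8 (27.6%), beside 13.0%. In 0 windows did motifs overlap. Of 14 genes higher in the late step of the animal 6 held CCAAT, 3 TTTGAA and 2 GTTGCC, and of 6 lower genes 3, 2 and 1. These counts rest on few genes and were not tested. The shares among all higher or all lower genes were not counted. The windows of 3 genes with a large excess in animal MII oocytes, and of Cep89, which was lower, follow 5′ to 3′ on the gene's strand, with CCAAT and TTTGAA or their reverse complements in capitals.
Cep55: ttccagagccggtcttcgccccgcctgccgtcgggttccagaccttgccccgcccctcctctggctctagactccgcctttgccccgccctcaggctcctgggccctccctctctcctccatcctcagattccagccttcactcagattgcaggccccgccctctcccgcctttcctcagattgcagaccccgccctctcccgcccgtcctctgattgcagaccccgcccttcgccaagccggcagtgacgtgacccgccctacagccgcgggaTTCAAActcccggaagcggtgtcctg
Cep57l1: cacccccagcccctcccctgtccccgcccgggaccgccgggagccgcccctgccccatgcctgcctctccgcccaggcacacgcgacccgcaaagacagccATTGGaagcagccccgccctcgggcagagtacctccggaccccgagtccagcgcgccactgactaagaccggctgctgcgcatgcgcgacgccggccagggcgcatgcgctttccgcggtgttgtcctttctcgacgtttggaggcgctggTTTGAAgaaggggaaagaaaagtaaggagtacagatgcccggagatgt
Cep135: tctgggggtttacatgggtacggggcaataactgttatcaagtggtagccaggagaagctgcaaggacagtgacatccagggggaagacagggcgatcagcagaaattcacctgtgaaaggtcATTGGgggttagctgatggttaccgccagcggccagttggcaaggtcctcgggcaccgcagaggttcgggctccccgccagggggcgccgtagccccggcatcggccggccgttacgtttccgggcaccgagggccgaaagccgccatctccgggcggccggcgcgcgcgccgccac
Cep89: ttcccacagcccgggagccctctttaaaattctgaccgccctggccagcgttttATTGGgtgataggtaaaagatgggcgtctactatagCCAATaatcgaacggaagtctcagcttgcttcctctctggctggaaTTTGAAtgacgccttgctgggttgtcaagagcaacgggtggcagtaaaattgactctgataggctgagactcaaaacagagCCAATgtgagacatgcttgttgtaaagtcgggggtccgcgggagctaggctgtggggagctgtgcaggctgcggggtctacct
They lie at chr19:38054734-38055033 (Cep55, plus strand), chr10:41809819-41810118 (Cep57l1, minus strand), chr5:76588449-76588748 (Cep135, plus strand) and chr7:35396813-35397112 (Cep89, plus strand). Cep89, lower in MII oocytes, carried both motifs, with 3 CCAAT boxes, and Cep55 carried TTTGAA alone. The Cep83 and Cep83os windows share 276 of their 300 bases, and both are counted among the 29.

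The route compared at MII gave differences in 1 direction only. Of the 34 genes 7 (20.6%) were at least 2-fold lower in cultured than in animal MII oocytes and 0 higher, beside 9.45% and 12.4% of all genes. Cep135, which joins the cartwheel of the new centriole to its wall, had 6.14 FPKM in cultured against 76.7 FPKM in animal MII oocytes (-3.44). Its secondary follicle values of 3.32 FPKM in culture and 2.68 FPKM in the animal were alike, so the gap was seen in MII oocytes and not in secondary follicle oocytes. Cep135 was at least 2-fold lower under all 7 alternatives, which ranged from -3.62 to -2.31.

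The other 6 were nearer to the threshold. Cep70 had 46.1 FPKM in cultured against 127 FPKM in animal MII oocytes (-1.44), Cep85l 12.55 against 31.58 FPKM (-1.27), and Cep57l1 126 against 295 FPKM (-1.22). Cep57 had 8.81 FPKM in cultured against 21.3 FPKM in animal MII oocytes (-1.18), Cep170 12.2 against 25.9 FPKM and Cep44 73.6 against 151 FPKM (both -1.03). With equal sums these 6 fell within 2-fold, at -0.78 for Cep70 and -0.37 for Cep44 as the extremes, while Cep135 was at -2.72. On that scale Cep83 (1.27), Cep41 (1.24) and Cep19 (1.12) were higher in culture, beside 16.7% of all genes higher and 1.18% lower, and the median of all genes was 0.23.

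**Figure D4:**
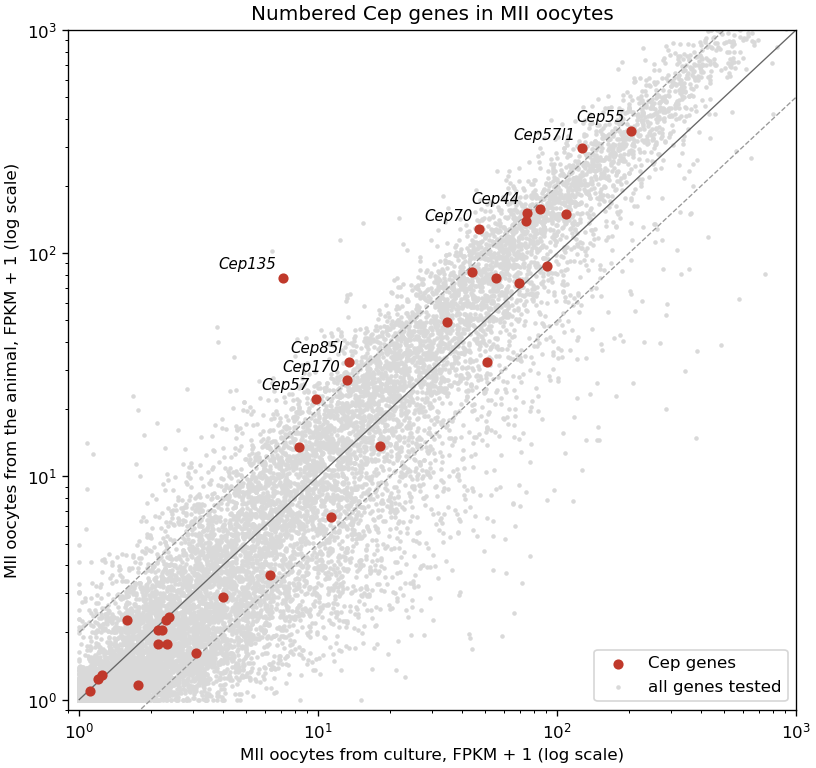
FPKM + 1 in cultured (horizontal) and animal (vertical) MII oocytes for the 34 Cep genes and all tested genes, on log axes, with lines at equal level and at 2-fold, and 129 genes beyond the axes. Cep135 lies farthest above the line of equal level, at 6.14 FPKM in culture and 76.7 FPKM in the animal, and no Cep gene lies below the lower 2-fold line.

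In the earlier stages the routes gave nearly the same Cep levels. In secondary follicle oocytes 0 Cep genes were higher in culture and 1 lower, beside 1.74% and 0.660% of all genes. That gene was Cep250, with 4.14 FPKM in cultured against 9.94 FPKM in animal secondary follicle oocytes (-1.09). In reaggregated PGCLCs against E12.5 PGCs 0 were higher and 0 lower, with a range of -0.49 to 0.52, beside 1.39% and 0.786% of all genes.

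Earlier in the culture few Cep genes differed between steps. In day 6 PGCLCs 4 were higher than in ES cells and 1 lower, beside 9.63% and 12.0% of all genes. Cep89 had 31.6 FPKM in day 6 PGCLCs against 8.30 FPKM in ES cells (1.81), and Cep164 had 33.4 FPKM against 12.2 FPKM (1.38). Both belong to the distal appendage. Cep41 (1.34) and Cep78 (1.02) were also higher, and Cep76, at 2.21 FPKM in day 6 PGCLCs against 6.65 FPKM in ES cells, was lower (-1.26). With equal sums 4 lay above and 2 below 2-fold, beside 11.7% and 12.3% of all genes.

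In reaggregated PGCLCs 2 were higher than in day 6 PGCLCs and 2 lower, beside 5.15% and 5.04% of all genes. Cep350 had 8.35 FPKM in reaggregated against 1.94 FPKM in day 6 PGCLCs (1.67), and Cep170b 13.4 against 5.73 FPKM (1.10). Cep89 had 12.9 FPKM in reaggregated against 31.6 FPKM in day 6 PGCLCs (-1.24), and Cep55 had 18.0 against 38.1 FPKM (-1.04). With equal sums 4 lay above and 1 below 2-fold, beside 9.31% and 3.74% of all genes.

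Other genes of the centrosome were counted in 5 lists of 12 to 19 genes, all of them measured. Of 19 centriole duplication genes 11 were higher in oocytes than in stem and germ cells and 1 lower (median 1.08), beside 26.8% and 31.5% of all genes. In MII against secondary follicle oocytes of the animal 12 were higher and 3 lower (median 2.04), beside 28.0% and 33.1% of all genes. Plk4, the kinase that starts centriole duplication, had 294 FPKM in cultured MII against 11.8 FPKM in cultured secondary follicle oocytes, and 409 FPKM in animal MII against 11.5 FPKM in animal secondary follicle oocytes (4.53 and 5.04). Its substrate Stil, the 1 gene lower in oocytes, differed by -1.64 from stem and germ cells. Stil had 0.648 to 1.13 FPKM in oocyte groups against 4.03 to 6.47 FPKM. Stil differed little between MII and secondary follicle oocytes (-0.03 in culture and -0.37 in the animal), so its low level was already present in secondary follicle oocytes.

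Of 15 genes of the pericentriolar material 3 were higher in oocytes and 8 lower (median -1.09), against the same 26.8% and 31.5%. The 3 were gamma-tubulin Tubg2 (6.88), Nedd1 (2.70) and the scaffold Pcnt (2.40), and the lowest was Tubgcp3 (-2.86), a subunit of the gamma-tubulin complex. Pcnt, a core component of acentriolar organizing centres, had 66.3 and 60.7 FPKM in cultured and 68.7 and 83.6 FPKM in animal secondary follicle and MII oocytes, against 9.58 to 16.0 FPKM in stem and germ cells. Its level was reached by the secondary follicle stage, and MII and secondary follicle oocytes were within 2-fold of each other (-0.13 in culture and 0.28 in the animal).

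Of 16 spindle pole and augmin genes 5 were higher in oocytes and 4 lower (median 0.61), again beside 26.8% and 31.5% of all genes. The augmin subunits were found on both sides, with Haus4 at 2.89, and Haus7 (-2.68), Haus1 (-2.29), Haus2 (-2.15) and Haus6 (-1.07) made up the 4 lower genes. In the same contrast the shares of the remaining lists were near or below those of all genes. Of 12 appendage and linker genes 2 were higher and 4 lower (median -0.25), with Nin at 5.55 and the linker protein Crocc, or rootletin, at -3.10. Of 14 intraflagellar transport genes 2 were higher and 4 lower (median -0.45), with Ift43 at 3.61, and in the late step 2 were higher and 7 lower by each route (medians -1.02 in culture and -1.05 in the animal), where 28.6% of all genes in culture and 33.1% in the animal were lower. Crocc had 0.157 FPKM in cultured and 0.0718 FPKM in animal MII oocytes and at most 1.26 FPKM in secondary follicle oocytes, against 10.2 to 17.1 FPKM in stem and germ cells. Its linker partner Cep250 was low in MII oocytes as well.

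Cetn2, a centrin of the centriole, stood apart from the Cep genes in the MII route comparison. It had 52.7 FPKM in cultured against 4.42 FPKM in animal MII oocytes (3.31), the opposite direction to Cep135. In the duplication list 1 gene was higher and 2 lower in cultured than in animal MII oocytes (median -0.63), beside 12.4% and 9.45% of all genes.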

How the data were processed

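Poly(A)+ RNA of 23 samples in 8 groups was measured. The values deposited by the authors are in FPKM, with 1 value per gene and group, per the file headers. The submitters' processing notes name mm10 as the build, and TopHat2, Bowtie2 2.0.13, Cufflinks and Cuffdiff 2.2.1 as tools. Depth is unknown, and pooling hides the spread between samples.

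Values were taken as log2(FPKM + 1). Genes with at least 1 FPKM in at least 1 of 8 groups were used (14242), and a difference of at least 1 was called. The contrast of oocytes used the means of 4 groups against 4. No test was possible, and 10 comparisons are described by counts and medians. The members and gene lists were chosen with earlier results of these data known. Each member was assigned to a single role group, which the plan did not list, and counts per role depend on that assignment. Named are all members past 2-fold in the oocyte contrast, in other comparisons those past 2-fold with at least 5 FPKM in the higher group (at most 12 a direction), and up to 4 per list. The values of 1 member, which is counted throughout, are not reported here. Other genes named, and the promoter and transcript end searches, were chosen after values were seen. The protein-coding genes Cep76, Cep120 and Cep192 were left out of the transcript end search. Alternatives were pseudocounts of 0.1 and 5, no filter or a filter of 5 FPKM, equal sums, quantile normalization and median centring. In the reference transcripts, the pairs Cep57 and Cep57l1, Cep170 and Cep170b, and Cep85 and Cep85l shared 0 words of 50 bases. The scripts were checked on simulated data and ran under Python 3.11.15, pandas 2.3.3, NumPy 2.4.6 and matplotlib 3.10.9.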

Additional observations from a re-analysis of the deposited data

How the results depend on the processing

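Counts of called Cep genes stayed within 1.5 times the main count in 130 of 156 cases, and the other 26 follow. With a pseudocount of 5, which damps genes of low level, the counts were 1 lower in oocytes against stem and germ cells, 3 lower in the early step in culture, 4 lower in the early step in the animal, 4 lower in cultured against animal MII oocytes, 0 lower in cultured against animal secondary follicle oocytes, 2 higher and 0 lower in day 6 PGCLCs against ES cells, and 0 higher and 1 lower in reaggregated against day 6 PGCLCs. With a pseudocount of 0.1 they were 2 higher in cultured against animal MII oocytes, 2 lower in cultured against animal secondary follicle oocytes, 2 lower in day 6 PGCLCs and 4 higher in reaggregated PGCLCs. With equal sums they were 6 higher in oocytes, 15 lower in the early step in culture, 10 higher in the late step in culture, 12 lower in the late step in the animal, 3 higher and 1 lower in cultured against animal MII oocytes, 2 lower in day 6 PGCLCs, and 4 higher and 1 lower in reaggregated PGCLCs. Quantile normalization gave 4 lower in oocytes and 2 lower in cultured against animal MII oocytes, and median centring 5 lower in oocytes. Without the in vivo MII oocytes 7 were higher in oocytes, against 12 with them. Of the single called values reported by gene, 665 kept their call and 80 came within 2-fold. Many of the 665 could not have been lost. They include 107 without a filter and 103 with the filter of 5 FPKM, settings that leave a gene's own difference unchanged. Another 107 came from the pseudocount of 0.1, which can only widen a difference between 2 groups.

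No paired analysis was possible because the table holds 1 value per group and its columns carry no replicate numbers. Leaving out single samples and the planned fits per sample were not run for the same reason. Depth and replicate error are unknown, which limits what small differences and values under 1 FPKM show.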

Other observations

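A few genes that RefSeq now names as numbered Cep genes stand in the table under older symbols and were not among the 34. The gene listed as 5830418K08Rik (Cep295, which stabilizes new centrioles) had 1.96 and 3.37 FPKM in cultured and animal secondary follicle oocytes and 12.7 and 38.5 FPKM in cultured and animal MII oocytes, against 9.27 to 11.7 FPKM in stem and germ cells. Its values were lowest in secondary follicle oocytes and highest in animal MII oocytes, as were those of Cep192. Fopnl (Cep20) had 9.92 and 13.1 FPKM in cultured and animal secondary follicle oocytes and 28.8 and 36.4 FPKM in MII oocytes of those routes, against 18.7 to 25.8 FPKM in stem and germ cells. Fgfr1op (Cep43), whose product binds Cep350, had 6.68 and 8.03 FPKM in cultured and animal secondary follicle oocytes and 11.4 and 12.1 FPKM in MII oocytes of those routes, against 19.5 to 21.3 FPKM in stem and germ cells.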
